A study of Mus musculus with 33 samples.

Results

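Fatty acid oxidation in the liver and its control by PPAR-alpha were followed through 37 genes, named by symbol and all found among the 21671 genes of the deposited table. The rule takes every row of the table whose symbol is on a list of pathway genes, and that list was drawn up with earlier results of these data known. The genes are the regulators Ppara and Creb3l3, the secreted and other PPAR-alpha targets Fgf21, Angptl4, Pdk4, Vnn1, Plin2 and Pex11a, and the fatty acid binding and uptake genes Fabp1 and Slc27a2. Next come the carnitine shuttle (Cpt1a, Slc25a20, Cpt2), 11 genes of mitochondrial β-oxidation, 6 of peroxisomal oxidation, the ketone body enzyme gene Bdh1, the omega-oxidation enzymes Cyp4a10 and Cyp4a14, and the acyl-CoA thioesterases Acot1 to Acot4. All 37 passed the filter on low values in both arms of the study, so no member is missing from any count over the day-4 livers or over the tumour arm. The samples came from C57BL/6 mice. In the first arm, mice 6 to 8 weeks old received 1e+11 particles of AAV8-TBG-CRE, a virus whose TBG promoter drives Cre recombinase in hepatocytes, and livers were taken 4 days later. All 4 groups of this arm carried the virus. The groups were wild type (WT), b-cat Ex3 (a β-catenin allele from which Cre removes exon 3, called Ex3 here), R26-lslMYC (a MYC transgene at Rosa26 behind a stop cassette that Cre removes, called MYC) and both alleles together (MYC+Ex3), with 5 livers each. In the second arm, 3 nodules came from Alb-CreERT2/R26-lslMYC mice and 3 from Alb-CreERT2/R26-lslMYC/b-catEx3 mice, in which an albumin promoter drives a Cre that tamoxifen activates, and 7 livers came from wild-type mice 4 days after an intraperitoneal injection of 4-hydroxytamoxifen (4-OHT). The labels give no treatment or age for the tumour-bearing mice and no age for the 4-OHT livers. The wild-type mice are not said to carry Alb-CreERT2, so tumour, Cre, age and time since 4-OHT cannot be told apart in the comparisons of tumours with livers.

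PPAR-alpha is a nuclear receptor that fatty acids activate. It pairs with RXR on direct repeats of a hexamer in DNA and raises the genes of fatty acid uptake, oxidation and ketone body formation, above all in fasting. Long-chain fatty acids are burned in mitochondria after CPT1A has handed them to carnitine, and very long chains are shortened first in peroxisomes. CYP4A enzymes oxidise the far end of the chain, and Cyp4a10 and Cyp4a14 are among the most responsive PPAR-alpha targets of mouse liver.

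Levels are given as RPKM, the reads of a gene divided by its length in kilobases and by a library total in M reads that the authors set. Reads assigned to genes numbered 3.75 to 7.31 M per day-4 library and 6.65 to 9.82 M per library of the tumour arm. The RPKM totals of the tumour arm were 23.89 to 38.84 M, so the arms are on different scales and no level was compared between them. Axin2, a feedback target of β-catenin, lay at 10.6 to 24.9 RPKM in Ex3 and 7.49 to 24.3 in MYC+Ex3 livers, above the 2.73 to 4.30 of WT livers, and at 7.63 to 11.3 in MYC+Ex3 tumours against 0.0946 to 0.66 in MYC tumours. The table's Myc gene does not check the MYC label: it spanned 0.748 to 4.11 RPKM in WT and 3.12 to 4.81 in MYC livers, and whether reads of the transgene were counted there is not given in the sources used here. Summed proliferation markers (4 genes) were at 2.59 to 10.8 RPKM in WT livers, 7.5 to 84.2 in Ex3 livers, 91.6 to 241 in MYC livers and 160 to 277 in MYC+Ex3 livers. The labels do not give the sex of the animals; read from Xist and Ddx3y, males numbered 2 of 5 in WT livers, 3 of 5 with Ex3, 3 of 5 with MYC and 4 of 5 with both alleles. In the tumour arm they numbered 4 of 7 among the livers after 4-OHT, 3 of 3 among tumours with MYC and 2 of 3 among tumours with both. MYC liver replicate 5, counted as female, had a mixed signal, with Xist at 86.1 and Ddx3y at 4.74 RPKM. Ddx3y reached at most 0.134 RPKM in the other female day-4 livers. The day-4 livers also split by epidermal keratins. Krt5, Krt14 and Krt17 together exceeded 2 RPKM in 3 of 5 WT, Ex3 and MYC+Ex3 livers but in 1 of 5 MYC livers. Values within the keratin-free and, where it has enough livers, the keratin-bearing set stand beside the pooled ones. In these samples of bulk tissue, fewer hepatocytes and less RNA per hepatocyte cannot be told apart.

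The genes with the highest level per length in the WT livers of day 4 were Fabp1, the cytosolic fatty acid binding protein of hepatocytes, at 213 ± 14 RPKM (mean ± SD, n = 5) and Slc27a2, a very-long-chain acyl-CoA synthetase and fatty acid transporter, at 193 ± 11.5, whose ranges overlapped. Plin2 (176 ± 21.9), which coats lipid droplets, the mitochondrial thiolase Acaa2 (176 ± 11.6) and the dienoyl-CoA isomerase Ech1 (175 ± 15.5) followed and could not be ordered within their SDs. At the other end stood Pdk4 (17.5 ± 13.6), a kinase that shuts pyruvate dehydrogenase, Acot1 (15.8 ± 4.95), Fgf21 (12.6 ± 13.3), a hormone of the fasted liver, and Acot2 (8.03 ± 2.73). The spread within a genotype differed widely between members. Among the mitochondrial genes the coefficient of variation over the 5 WT livers ran from 4.56% for Acadvl to 20% for Acadl. Hadha, the α-subunit of the trifunctional protein, was at 71.0, 67.4, 76.0, 74.1 and 76.5 RPKM there. Fgf21 instead lay at 2.75, 1.42, 29.6, 24.3 and 4.82 RPKM in the same livers, so 2 of them were far above the other 3. In the 4-OHT livers Ehhadh, the bifunctional enzyme of peroxisomal β-oxidation, was highest (41.8 ± 5.13, n = 7), before Fabp1 (36.2 ± 5.04) and Slc27a2 (32.6 ± 4.43), and Pdk4 was lowest (1.57 ± 1.22). Reads of abundant genes rose less than in proportion to library depth, for which the log2 slope would be 1; slopes were taken within each group, keratin set and 4-OHT set. Only genes with a median of at least 200 reads entered, apart from members. Among genes with at least 0.5 reads per base, the median slope was 0.49 over all such genes of the day-4 livers and 0.54 over the 16 members among them. In the tumour arm it was 0.37 over all such genes and 0.12 over 22 members. Genes under 0.1 reads per base had median slopes of 1.35 and 1.57 in the 2 arms. The highest value of any gene in a library was 220 to 396 RPKM in the day-4 livers and 42.9 to 67.5 RPKM in the tumour arm. Fabp1, at a median of 1.03 reads per base in the day-4 livers, had a slope of 0.17 there. What depth contributes to the order and spread of abundant genes above, and to the results below, was not tested.

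**Figure D1:**
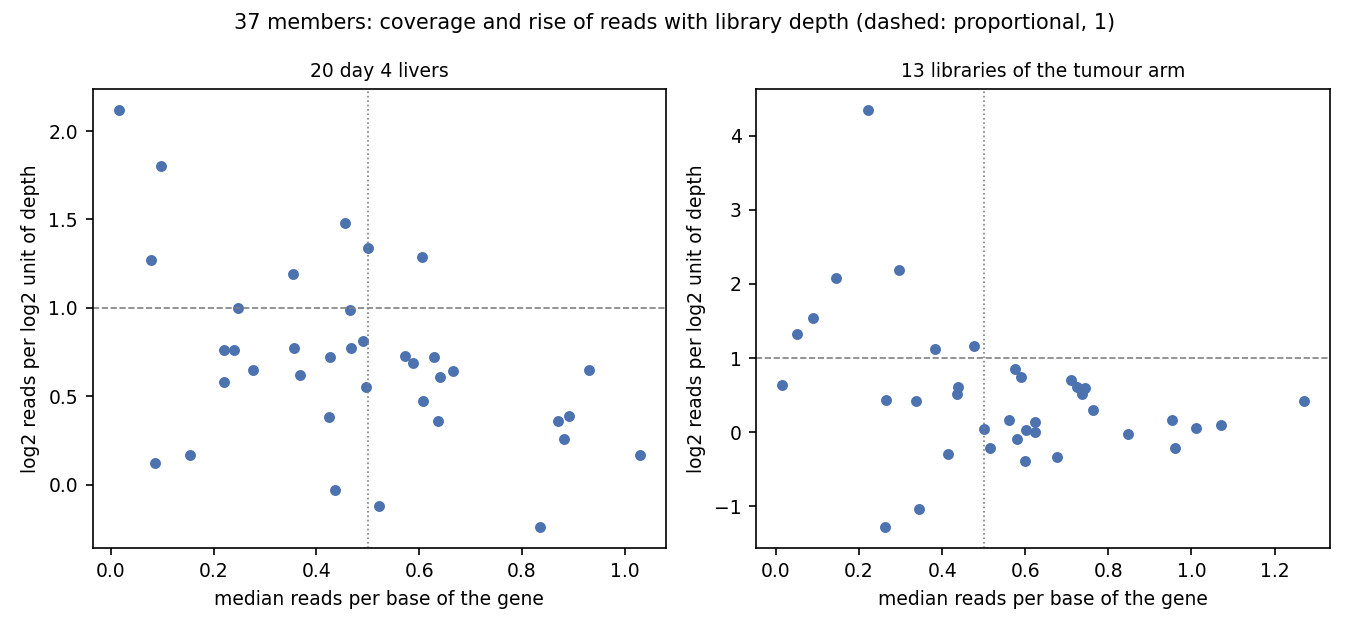
Each point is 1 of the 37 genes; the x axis gives its median reads per base of the gene and the y axis the slope of log2 reads on log2 reads in genes of the library after removing group, keratin set and 4-OHT set means, over the 20 day-4 livers (left) and the 13 libraries of the tumour arm (right). Most genes right of the dotted line at 0.5 reads per base lie below the dashed line at 1, with medians of 0.54 and 0.12.

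For 30 of the 37 genes RefSeq promoters were at hand (33 promoters, GRCm38.p6; the other 7 are Acaa2, Angptl4, Cyp4a10, Cyp4a14, Decr1, Hsd17b4 and Vnn1). The search covered 250 bases before to 50 after each start site, on both strands, for the hexamer AGGTCA and for the arrangement PPAR-alpha binds with RXR, a pair of AGGTCA copies with 1 base between them (DR1), whose copies also count as hexamers. The hexamer occurred in 10 of 33 member promoters (30.3%) and in 5340 of 32851 promoters of the whole table (16.3%). An exact DR1 occurred in 0 member promoters and in 13 of all (0.0396%), one with up to 1 mismatch in 1 (3.03%, against 0.554% of all), and one with up to 2 mismatches in 5 (15.2%, against 3.86%), those of Fabp1, Plin2, Slc25a20, Creb3l3 and Acot4. These counts are a description of the letters in a short window, with no test. Shown are 120 bases that end 1 base before the start site, 5′ to 3′ on the gene's strand, for Fabp1, the member whose DR1 comes closest, and for 4 genes on which the results turn. Capitals mark a DR1 with 1 mismatch, on the opposite strand and starting 67 bases before the start site, and a further AGGTCA on the opposite strand.
Fabp1, chr6:71199759-71199878 plus strand: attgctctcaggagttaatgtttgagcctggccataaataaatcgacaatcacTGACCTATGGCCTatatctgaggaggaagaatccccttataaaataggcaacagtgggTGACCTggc
Ppara, chr15:85735656-85735775 plus strand: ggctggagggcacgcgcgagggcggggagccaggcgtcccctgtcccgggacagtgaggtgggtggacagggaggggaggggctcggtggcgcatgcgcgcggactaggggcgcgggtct
Ehhadh, chr16:21787835-21787954 minus strand: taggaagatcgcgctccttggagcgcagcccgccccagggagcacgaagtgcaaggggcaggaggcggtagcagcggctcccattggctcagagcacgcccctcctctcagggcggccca
Acot1, chr12:84009382-84009501 plus strand: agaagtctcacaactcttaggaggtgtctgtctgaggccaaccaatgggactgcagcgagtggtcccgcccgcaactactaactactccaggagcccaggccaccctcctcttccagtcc
Acot2, chr12:83987741-83987860 plus strand: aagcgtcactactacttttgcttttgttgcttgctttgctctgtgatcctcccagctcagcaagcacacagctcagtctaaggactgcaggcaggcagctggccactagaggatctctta
Only the Fabp1 stretch carries capitals. The windows of Ppara, Ehhadh, Acot1 and Acot2, whose levels moved, hold neither motif in the 120 bases shown. Acot2, Acot1, Acot4 and Acot3 lie side by side on chromosome 12, with start sites at 83987861, 84009502, 84038379 and 84052144, a span of 64.3 kb, and Hadha and Hadhb, the subunits of the trifunctional protein, start 273 bases apart, head to head, on chromosome 5. The thioesterases, and Cyp4a10 and Cyp4a14, have close paralogs, and how reads shared between copies were counted is not given in the sources used here, so the split of reads within these families is uncertain.

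With MYC alone, the regulator Ppara and part of the peroxisomal pathway were lower and a thioesterase was higher. Of the 37 genes, 1 rose and 5 fell in MYC against WT livers of day 4 (limma on log2(RPKM + 1), Benjamini-Hochberg adjusted p under 0.05 over 13688 genes), where 16.9% of all genes tested rose and 5.36% fell. The share of members that fell exceeded that of all genes and the share that rose was smaller. Of the 37 changes 33 were below 0, and their median was -0.17 on the log2(RPKM + 1) scale against 0.07 over all genes.

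Ppara itself was at 74.4, 137, 106, 85.5 and 98.1 RPKM in the WT livers and at 45.1, 84.2, 53.4, 21.7 and 87.2 in the MYC livers. The MYC values spread more widely, and the highest of them overlap the WT range. The log2 change was -0.90 ± 0.26 (SE; adjusted p = 0.0174). Creb3l3, a liver transcription factor that works with PPAR-alpha, did not pass the test (117 ± 8.80 against 119 ± 9.04 RPKM).

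In peroxisomal oxidation 3 of 6 genes fell and none rose. Ehhadh lay at 118, 165, 134, 108 and 190 RPKM in WT and at 92.2, 94.7, 97.0, 52.8 and 101 in MYC livers. Every MYC liver was below every WT liver, and the log2 change was -0.70 ± 0.20 (adjusted p = 0.0143). Decr2, the peroxisomal 2,4-dienoyl-CoA reductase, was at 95.9, 119, 119, 99.6 and 105 RPKM in WT and at 66.5, 92.9, 68.9, 43.5 and 96.5 in MYC livers. The groups overlapped by a single MYC liver, with a log2 change of -0.59 ± 0.15 (adjusted p = 0.00906). Hsd17b4, the D-bifunctional protein of the same pathway, fell by less, from 96.4 ± 6.80 to 81.4 ± 7.63 RPKM (log2 change -0.24 ± 0.08, adjusted p = 0.0419). Slc27a2, which activates very long chains, was at 186, 205, 178, 193 and 203 RPKM in WT and at 155, 156, 160, 114 and 153 in MYC livers. The groups did not overlap, and the log2 change was -0.39 ± 0.11 (adjusted p = 0.0145).

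The 1 gene that rose was Acot2, which cleaves long-chain acyl-CoA in the mitochondrial matrix. It was at 7.02, 9.39, 11.6, 4.30 and 7.79 RPKM in WT and at 26.9, 14.3, 14.9, 29.3 and 20.7 in MYC livers. The lowest MYC liver stood above the highest WT liver (log2 change 1.30 ± 0.29, adjusted p = 0.00256). Its cytosolic neighbour Acot1 was 0.64 ± 0.23 higher on the log2 scale and missed the threshold (adjusted p = 0.0504).

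In mitochondrial β-oxidation 0 of 11 genes passed the test. Of their changes 10 were below 0, with a median of -0.13, and 2 had an unadjusted p under 0.05. A difference from the peroxisomal genes was not tested. The authors' deposited table calls 1 of these 11 lower, Etfdh (log2 fold change -0.31, adjusted p = 0.0259). Of all genes it calls 20.5%, rises and falls together. Acadm, the medium-chain acyl-CoA dehydrogenase, had a log2 change of 0.04 ± 0.10 (adjusted p = 0.813) and Hadha one of -0.10 ± 0.09 (adjusted p = 0.46). Cpt1a, the gate of the carnitine shuttle, was at 116 ± 26.5 RPKM in WT and 96.2 ± 23.4 in MYC livers (log2 change -0.27 ± 0.19, adjusted p = 0.341). Several inducible targets did not pass either. Log2 changes were -0.78 ± 0.55 for Cyp4a14 (adjusted p = 0.342), -1.16 ± 0.64 for Fgf21 (adjusted p = 0.208) and -0.16 ± 0.47 for Pdk4 (adjusted p = 0.855). All 6 calls were lost among the keratin-free livers (2 WT, 4 MYC). There, Ppara changed by -0.45 (adjusted p = 0.329), Ehhadh by -0.38 (0.15), Decr2 by -0.41 (0.167), Hsd17b4 by -0.15 (0.452), Slc27a2 by -0.22 (0.154) and Acot2 by 0.96 (0.0531). With a term for the keratin split over all 20 livers 5 were called, all but Hsd17b4 (adjusted p = 0.0513). With only the MYC and WT livers in the fit, Ppara, Decr2 and Hsd17b4 lost their calls. The Ppara call also needed WT replicate 2, without which its adjusted p was 0.0521. Of 7 hepatocyte markers 1, Tat, fell beside it (log2 change -0.57 ± 0.20, adjusted p = 0.0418); the part of this in the result was not tested.

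**Figure D2:**
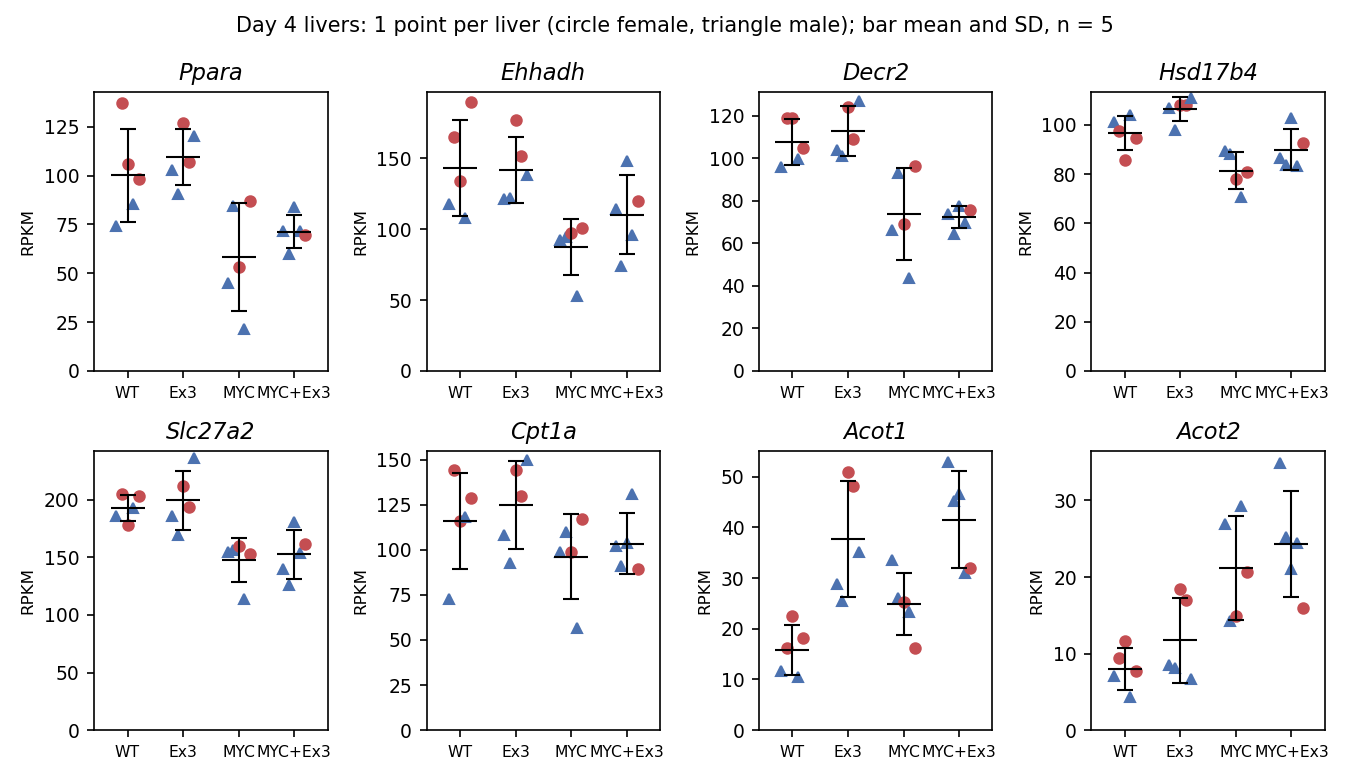
RPKM of 8 genes in the 20 day-4 livers, by genotype on the x axis; each point is 1 liver (circles female, triangles male), and bars give the mean and SD of 5 livers. Ehhadh and Slc27a2 lie lower in all MYC livers than in any WT liver, while Acot1 and Acot2 reach their highest means, 41.5 and 24.3 RPKM, in MYC+Ex3 livers.

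With Ex3 alone, only Acot1, the cytosolic long-chain acyl-CoA thioesterase, passed the test (1 higher, 0 lower, where 0.132% of all genes tested rose and 0% fell). It was at 11.6, 16.2, 22.5, 10.4 and 18.1 RPKM in WT and at 28.8, 25.4, 50.9, 48.2 and 35.1 in Ex3 livers. Every Ex3 liver was above every WT liver, with a log2 change of 1.21 ± 0.23 (adjusted p = 0.0365). The call was lost in each keratin set alone (log2 change 0.71 among keratin-free and 1.54 among keratin-bearing livers, adjusted p = 1 and 0.109) and kept with a term for the split (adjusted p = 0.0397). The changes of 33 of 37 genes were above 0, with a median of 0.10 against 0.01 over all genes. By role, the median was 0.62 over the 4 thioesterases and 0.64 over the 2 omega-oxidation genes. Cyp4a10 was at 77.3 ± 21.9 RPKM in WT and 118 ± 26 in Ex3 livers and did not pass. Log2 changes of the other genes always reported were 0.14 ± 0.26 for Ppara, 0.12 ± 0.19 for Cpt1a, 0.05 ± 0.10 for Acadm, 0.10 ± 0.09 for Hadha, 0.01 ± 0.20 for Ehhadh, 0.65 ± 0.55 for Cyp4a14, -0.71 ± 0.64 for Fgf21 and 0.93 ± 0.47 for Pdk4, with adjusted p-values from 0.952 to 1. Bdh1, which makes β-hydroxybutyrate from acetoacetate, was at 79.1 ± 9.52 RPKM in WT and 100 ± 11.4 in Ex3 livers and did not pass (log2 change 0.34 ± 0.11, adjusted p = 0.505).

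With both alleles, 2 of 4 thioesterases, Acot1 and Acot2, rose and Decr2 and Slc27a2 fell. In MYC+Ex3 against WT livers 2 genes rose and 2 fell, where 17.9% of all genes tested rose and 6.18% fell; the share of members that fell was near that of all genes. Acot1 was at 52.9, 45.2, 46.5, 31.1 and 32.0 RPKM in the MYC+Ex3 livers, all above the highest WT value of 22.5 (log2 change 1.36 ± 0.23, adjusted p = 0.000184). Acot2 was at 34.9, 25.2, 21.1, 24.5 and 15.9 RPKM, again without overlap with WT (log2 change 1.5 ± 0.29, adjusted p = 0.00062). Decr2 was at 74.0, 64.6, 77.6, 69.5 and 75.7 RPKM, below every WT liver (log2 change -0.57 ± 0.15, adjusted p = 0.0111). These 3 calls held within the keratin-free livers and within the keratin-bearing livers. Slc27a2 was at 140, 126, 181, 154 and 162 RPKM and overlapped WT at its highest value (log2 change -0.34 ± 0.11, adjusted p = 0.029). With sex as a covariate its adjusted p was 0.067. The Slc27a2 call was also lost within the keratin-bearing livers (log2 change -0.27, adjusted p = 0.0852) and in 5 of 20 fits that left out a liver. Ppara, at 71.7, 60.1, 83.9, 71.4 and 69.6 RPKM, did not pass (log2 change -0.46 ± 0.26, adjusted p = 0.208), although the authors' deposited table calls it, with a log2 fold change of -0.55 and an adjusted p of 0.0165. Ehhadh did not pass either (log2 change -0.37 ± 0.20, adjusted p = 0.179). Again 0 of 11 mitochondrial genes were called. Log2 changes of Cpt1a, Acadm and Hadha were -0.14, 0.06 and -0.02 (adjusted p = 0.642, 0.73 and 0.891). Those of Cyp4a14, Fgf21 and Pdk4 were 0.04 ± 0.55, -1.43 ± 0.64 and 0.62 ± 0.47 (adjusted p = 0.966, 0.114 and 0.365).

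Adding Ex3 to MYC called none of the 37 genes (0 higher and 0 lower, with 3 at an unadjusted p under 0.05; 0.19% of all genes tested rose and 0% fell). Their changes were above 0 for 31 and below 0 for 5, with a median of 0.08 against -0.01 over all genes. Acot1, at 33.5, 26.0, 25.2, 23.4 and 16.3 RPKM in MYC livers, was 0.72 ± 0.23 higher on the log2 scale with Ex3 (adjusted p = 0.738). Bdh1 was at 71.0, 74.2, 70.8, 64.4 and 75.9 RPKM in MYC and at 85.1, 81.3, 112, 81.0 and 86.2 in MYC+Ex3 livers. Its groups did not overlap, but the log2 change of 0.31 ± 0.11 did not pass (adjusted p = 0.917). Log2 changes were 0.43 ± 0.26 for Ppara, 0.13 for Cpt1a, 0.02 for Acadm, 0.08 for Hadha, 0.33 ± 0.20 for Ehhadh, 0.82 ± 0.55 for Cyp4a14, -0.26 for Fgf21 and 0.77 ± 0.47 for Pdk4, each with an adjusted p of 1.

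Adding MYC to Ex3 gave 1 rise and 3 falls (16.4% of all genes tested rose and 4.7% fell). Acot2, at 8.45, 8.12, 18.5, 17.0 and 6.67 RPKM in Ex3 livers, rose by 1.05 ± 0.29 on the log2 scale (adjusted p = 0.0121), and its groups overlapped. Decr2 was at 104, 101, 124, 109 and 127 RPKM in Ex3 livers, all above the highest MYC+Ex3 value of 77.6 (log2 change -0.63 ± 0.15, adjusted p = 0.00564). Slc27a2 (-0.39 ± 0.11, adjusted p = 0.017) and Hsd17b4 (-0.25 ± 0.08, adjusted p = 0.042) also fell on the log2 scale. Hsd17b4 lost its call with no filter, in each keratin set alone and in 8 of 20 fits that left out a liver. Among keratin-free livers Acot2 (1.72, adjusted p = 0.00528) and Slc27a2 (-0.41, adjusted p = 0.0209) were called and Decr2 was not (-0.56, adjusted p = 0.078). Among keratin-bearing livers Decr2 (-0.68, adjusted p = 0.00451), Ppara (-0.65, adjusted p = 0.0344), Slc25a20, the carnitine-acylcarnitine carrier (-0.45, adjusted p = 0.0311), and Slc27a2 (-0.37, adjusted p = 0.0419) were called, and Acot2 was not (0.61, adjusted p = 0.335). Over all livers Ppara did not pass (-0.61 ± 0.26, adjusted p = 0.105), although its values of 103, 90.6, 127, 107 and 120 RPKM in Ex3 livers did not overlap those of MYC+Ex3 livers. Without MYC+Ex3 replicate 3, the library with the fewest reads of this arm, the count was 11, of which 10 fell. Log2 changes of the other genes always reported were -0.26 for Cpt1a, 0 for Acadm, -0.12 for Hadha, -0.38 ± 0.20 for Ehhadh, -0.61 ± 0.55 for Cyp4a14, -0.72 for Fgf21 and -0.31 for Pdk4 (adjusted p from 0.185 to 0.983). The test of whether the effects of MYC and Ex3 add up called 0 of 37 genes (0 at an unadjusted p under 0.05; 0% of all genes higher and 0% lower). The comparisons with WT share the same 5 WT livers, so their likeness is not independent evidence.

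**Figure D3:**
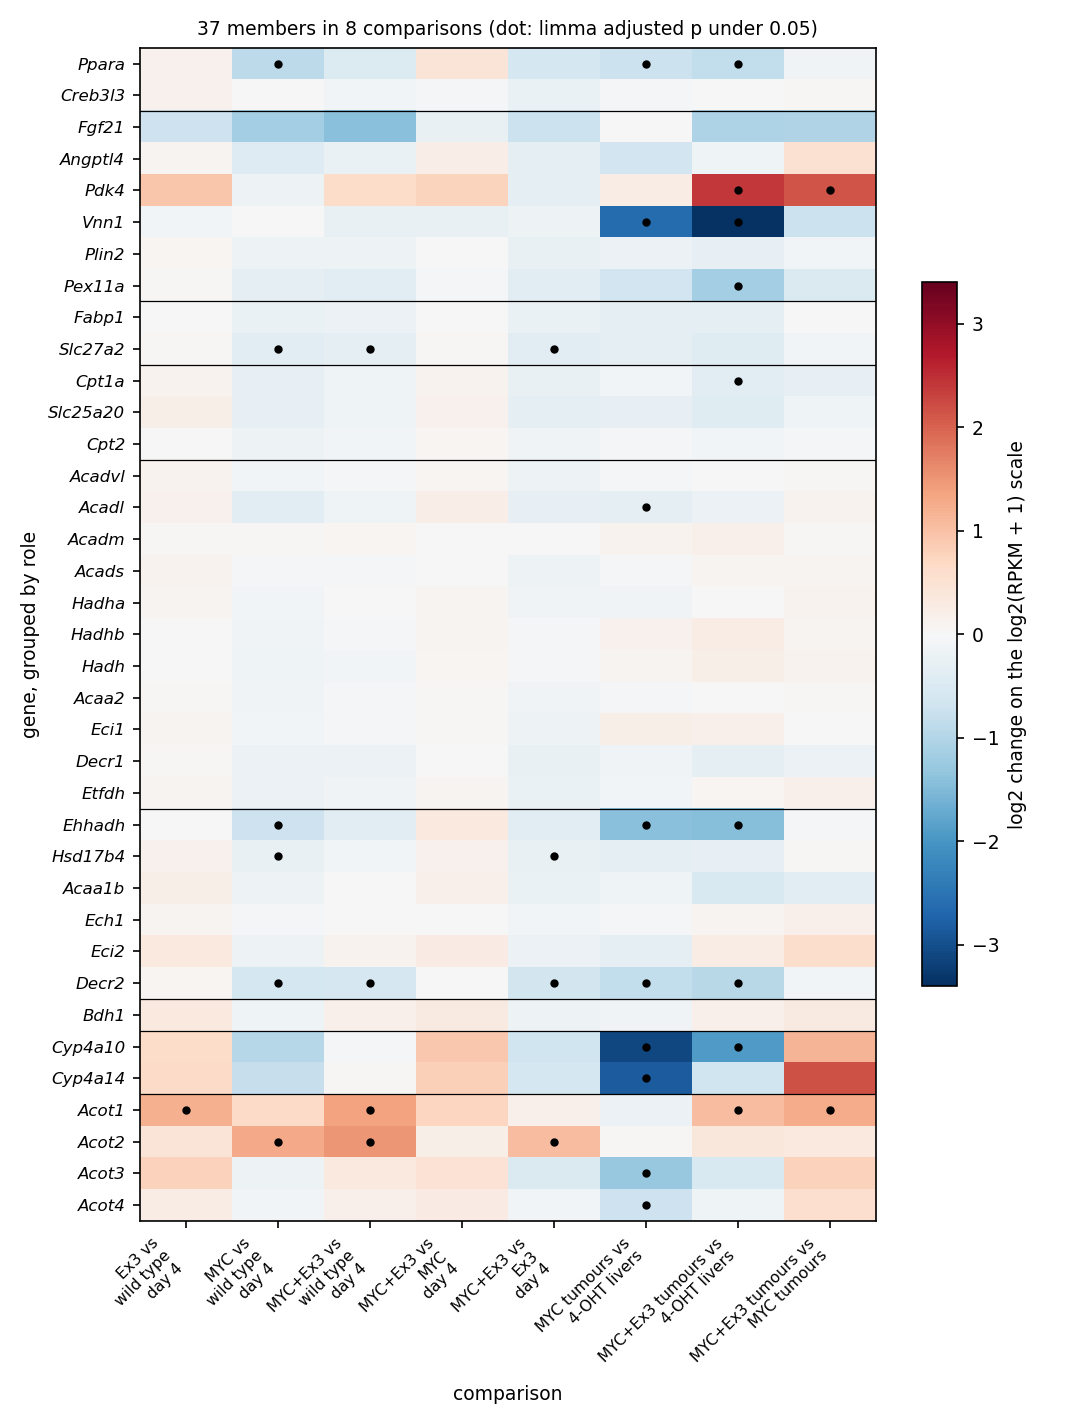
Log2 change on the log2(RPKM + 1) scale (colour, blue lower and red higher) of the 37 genes, in rows by role, across 8 comparisons in columns; a dot marks an adjusted p under 0.05. The 11 rows of mitochondrial β-oxidation, from Acadvl to Etfdh, carry 1 dot, for Acadl in MYC tumours. After rescaling 3 of these genes fell in MYC and 2 in MYC+Ex3 tumours, where 23.5% and 27.3% of all genes fell.

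In both kinds of tumour Vnn1, Cyp4a10, Ehhadh, Decr2 and Ppara were lower than in the 4-OHT livers. Of 6 peroxisomal genes 2 fell in each kind, and of 2 omega-oxidation genes 2 fell in MYC and 1 in MYC+Ex3 tumours. MYC tumours against 4-OHT livers gave 0 rises and 9 falls, where 36.2% of all 11854 genes tested rose and 13.7% fell. The share of the 37 genes that fell was above the share of all genes, and their median change was -0.15 against 0.19 over all genes. After rescaling each library by its median ratio, which moves the median of all genes to 0.01 and that of the members to -0.36, 20 genes fell and 0 rose, where 27% of all genes rose and 23.5% fell.

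Vnn1, a pantetheinase and sensitive PPAR-alpha target, ranged from 9.73 to 16.2 RPKM in the 7 4-OHT livers (median 12.3) and was at 2.10, 1.41 and 0.381 in the MYC tumours. The log2 change was -2.62 ± 0.20 (adjusted p = 6.28e-07). Cyp4a10 ranged from 10.8 to 25.1 RPKM in the livers (median 20.9) and was at 0.452, 6.22 and 0.104 in the tumours. Cyp4a14 ranged from 15.4 to 36.9 RPKM (median 32.6) and was at 2.65, 13.3 and 0.228. All MYC tumours were below all livers for both, although replicate 2 lay far above the other 2 tumours (log2 changes -3.09 ± 0.45, adjusted p = 9.27e-05, and -2.83 ± 0.52, adjusted p = 0.000594).

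Ehhadh ranged from 35.5 to 47.3 RPKM in the livers and was at 17.4, 16.2 and 11.5 in the MYC tumours, far below them (log2 change -1.43 ± 0.14, adjusted p = 4.49e-06). Decr2 ranged from 18.7 to 24.6 RPKM and was at 19.0, 11.1 and 7.02, so that 1 tumour lay in the liver range (log2 change -0.85 ± 0.22, adjusted p = 0.00641). Ppara ranged from 17.2 to 25.8 RPKM and was at 19.0, 10.2 and 7.58, with the same tumour in the liver range (log2 change -0.74 ± 0.21, adjusted p = 0.0107). That tumour, MYC replicate 1, has the lowest RPKM total of the arm, 23.89 M. Without it the count of members that fell was 16. Without replicate 3 it was 7, and Ppara (adjusted p = 0.0932) and Decr2 (adjusted p = 0.0586) were lost.

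Among the thioesterases, Acot4, a peroxisomal enzyme for dicarboxylic acyl-CoA, was at 4.03, 7.61 and 6.78 RPKM in MYC tumours, below the livers' 8.95 to 12.8 (log2 change -0.71 ± 0.15, adjusted p = 0.00152). Acot3, its peroxisomal neighbour, fell with overlap (0.533, 5.99 and 3.25 RPKM against 3.2 to 13.1; log2 change -1.30 ± 0.40, adjusted p = 0.0146), and was lost without MYC replicate 1 (log2 change -0.69, adjusted p = 0.105). The MYC tumours were all male, and with sex as a covariate Acot3 (log2 change -1.19, adjusted p = 0.0408), Acot4 (-0.72, adjusted p = 0.00428) and Cyp4a14 (-2.95, adjusted p = 0.00139) were still called lower. Acadl, the long-chain acyl-CoA dehydrogenase, was the only one of the 11 mitochondrial genes to fall, from 15.5 ± 1.29 to 12.3 ± 0.498 RPKM (log2 change -0.31 ± 0.10, adjusted p = 0.0223). The Acadl call was lost in 2 of 13 fits that left out a library, among them the fit without MYC replicate 1 (adjusted p = 0.0592). Acadm (0.13 ± 0.17), Hadha (-0.12 ± 0.13), Cpt1a (-0.10 ± 0.13), Fgf21 (-0.02 ± 0.55) and Pdk4 (0.26 ± 0.34) did not pass on the log2 scale (adjusted p from 0.473 to 0.973).

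MYC+Ex3 tumours against the same livers gave 2 rises and 7 falls, where 42.3% of all genes tested rose and 18.4% fell, so the share of members that fell was near the background. Rescaled by the median ratio the counts were 2 and 16, where 33.7% of all genes rose and 27.3% fell, so the share of members that fell was then above the background. Vnn1 was at 0.296, 0.457 and 0.174 RPKM (log2 change -3.36 ± 0.20, adjusted p = 2.72e-08). They overlapped the lowest MYC tumour, and the test of the tumour kinds against each other missed the threshold (log2 change -0.74 ± 0.24, adjusted p = 0.105). Ehhadh was at 13.3, 14.3 and 15.9 RPKM (log2 change -1.46 ± 0.14, adjusted p = 1.42e-06) and Cyp4a10 at 2.49, 5.19 and 4.92 (log2 change -1.93 ± 0.45, adjusted p = 0.0019). Cyp4a14, at 11.8, 18.5 and 21.9 RPKM, overlapped the livers and did not pass (log2 change -0.67 ± 0.52, adjusted p = 0.286).

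Ppara was at 8.77, 9.82 and 13.6 RPKM in these tumours, below every liver (log2 change -0.85 ± 0.21, adjusted p = 0.00343). Decr2 at 8.63, 9.58 and 15.1 RPKM (log2 change -0.93 ± 0.22, adjusted p = 0.00248) and Pex11a, which promotes peroxisome division, at 3.73, 3.35 and 4.97 RPKM against 7.17 to 15.4 (log2 change -1.15 ± 0.33, adjusted p = 0.00822) were also below every liver. Cpt1a was at 15.6, 19.2 and 20.3 RPKM against 21.4 to 28.9, a small fall without overlap (log2 change -0.38 ± 0.13, adjusted p = 0.0176), which was lost without MYC+Ex3 tumour replicate 1 (adjusted p = 0.113).

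Pdk4 and Acot1 went the other way. Pdk4 ranged from 0.400 to 4.07 RPKM in the livers (median 1.56), was at 1.75, 3.14 and 1.01 in MYC tumours and at 9.29, 9.68 and 17.1 in MYC+Ex3 tumours. Every MYC+Ex3 tumour was above every other library of the arm, with log2 changes of 2.41 ± 0.34 against livers (adjusted p = 3.32e-05) and 2.15 ± 0.40 against MYC tumours (adjusted p = 0.00635). Acot1 ranged from 1.5 to 5.38 RPKM in the livers (median 4), was at 1.83, 3.81 and 3.47 in MYC tumours and at 8.04, 7.93 and 9.13 in MYC+Ex3 tumours. It too was above every other library in these tumours (log2 changes 1.06 ± 0.27, adjusted p = 0.00339, and 1.25 ± 0.31, adjusted p = 0.0394); the call against MYC tumours was lost in 7 of 13 fits that left out a library. Both comparisons rest on the same 3 MYC+Ex3 tumours. They were the 2 rises among the 37 genes between the tumour kinds, with 0 falls (2.02% of all genes tested rose and 2.1% fell). Cyp4a14 was 2.16 ± 0.62 higher on the log2 scale in MYC+Ex3 than in MYC tumours and did not pass (adjusted p = 0.0678). Nor did Ppara (-0.11, adjusted p = 0.89), Ehhadh (-0.03, adjusted p = 0.958), Cpt1a (-0.29 ± 0.15, adjusted p = 0.347), Acadm (0.03, adjusted p = 0.971), Hadha (0.13, adjusted p = 0.734) or Fgf21 (-1.03 ± 0.65, adjusted p = 0.449).

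None of the 11 mitochondrial genes passed in MYC+Ex3 tumours, but this depends on the scaling. After rescaling 2 of 11 fell there, Acadl and Decr1, and 3 of 11 in MYC tumours, with Hadha (log2 change -0.32, adjusted p = 0.0147) as the third. Of all genes 27.3% and 23.5% fell in these rescaled fits, so the mitochondrial counts were below or near the background. The authors' deposited table calls 4 of 11 lower in MYC+Ex3 tumours (Acadl, Decr1, Acaa2 and Hadha) and 2 in MYC tumours (Acadl and Hadha). Of all genes it calls 60.7% and 44.5%, rises and falls together. On the scale of the deposited values log2 changes were 0.16 ± 0.17 for Acadm (adjusted p = 0.452) and 0.01 ± 0.13 for Hadha (adjusted p = 0.944). Fgf21 was at 0.0581, 0.0354 and 0.239 RPKM, below the livers' 0.334 to 8.98, and did not pass (log2 change -1.05 ± 0.55, adjusted p = 0.11); the library with the fewest Fgf21 reads in this arm held 1. Macrophage markers, of which 7 of 8 are in the table, summed to 110 to 146 RPKM in the 4-OHT livers, 37.3 to 114 in MYC tumours and 54.3 to 70.7 in MYC+Ex3 tumours. Hepatocyte markers, again 7 of 8, summed to 228 to 311, 194 to 309 and 186 to 245 RPKM. The highest value of any gene in a library of this arm was 42.9 to 67.5 RPKM. Reads of abundant genes rose less than in proportion to depth, so these sums were not taken as a measure of hepatocyte content. In MYC+Ex3 tumours endothelial markers (21.5 to 27.2 RPKM against 31.7 to 49.6 in the livers), stellate and fibroblast markers (21.3 to 26.5 against 32.1 to 41.7) and cholangiocyte markers (3.64 to 8.43 against 9.96 to 14.7) also summed to less than in any liver. In MYC tumours these sums were 23.5 to 32, 23 to 40.3 and 6.68 to 19.6 RPKM. None of the markers of these 5 cell types was at 0 in every library of a group. Of the hepatocyte markers none was called in MYC tumours and 4 fell in MYC+Ex3 tumours: Tat (log2 change -0.73 ± 0.22, adjusted p = 0.0111), Serpina1a (-0.38 ± 0.15, adjusted p = 0.0443), Ttr (-0.38 ± 0.15, adjusted p = 0.0388) and Alb (-0.35 ± 0.14, adjusted p = 0.0473). Their part in the falls above was not tested.

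**Figure D4:**
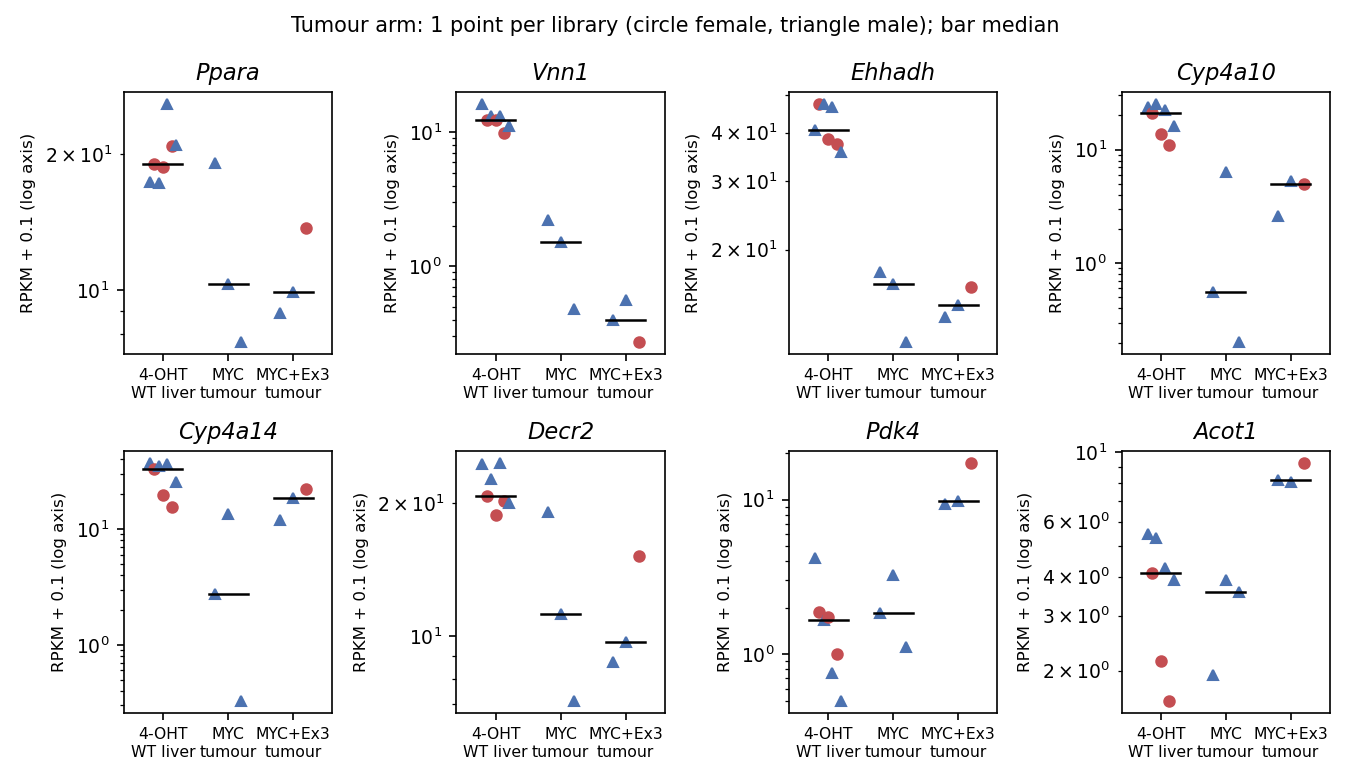
RPKM + 0.1 on a log axis of 8 genes in the 7 4-OHT livers, 3 MYC tumours and 3 MYC+Ex3 tumours; each point is 1 library (circles female, triangles male) and bars give medians. Vnn1, Ehhadh and Cyp4a10 lie below the livers in all 6 tumours, and Pdk4 and Acot1 stand highest in the 3 MYC+Ex3 tumours.

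The thioesterases Acot3 and Acot4 differed between the sexes in the day-4 livers. This comparison, which keeps the genotype means as terms, was added after the sexes had been read from the data. In 8 female against 12 male livers 4 of the 37 genes were higher and 0 lower, where 1.59% of all genes tested were higher and 1.5% lower. Acot3 ran from 29.6 to 118 RPKM in females (median 70.3) and from 0.645 to 38.5 in males (median 6.64). Among WT livers alone the 3 females were at 118, 64.5 and 34.2 RPKM and the 2 males at 0.645 and 1.35. The log2 difference was 3.4 ± 0.40 (adjusted p = 1.81e-05). Acot4 ran from 49.7 to 105 RPKM in females and from 23.3 to 56.4 in males (1.07 ± 0.17, adjusted p = 0.000717). Cyp4a14 ran from 145 to 259 in females and from 17.2 to 237 in males (1.34 ± 0.29, adjusted p = 0.014), and Acadl from 67.1 to 101 and from 47.4 to 95.0 (0.38 ± 0.10, adjusted p = 0.0352). Acadl lost its call in 12 of 20 fits that left out a liver, and the other 3 genes in none. Vnn1, Ehhadh, Cyp4a10 and Ppara did not pass (adjusted p = 0.0901, 0.114, 0.129 and 0.348). With sex as a covariate Acot3 was called higher in MYC+Ex3 than in WT livers (log2 change 1.68, adjusted p = 0.0388), a comparison of 4 males in 5 with 2 males in 5. The MYC+Ex3 males were at 15.1, 13.1, 17.5 and 12.3 RPKM, against 0.645 and 1.35 in the WT males. The only MYC+Ex3 female, at 55.4 RPKM, lay within the WT females' 34.2 to 118. That fit takes the sex difference as equal in all genotypes, which was not tested. In the tumour arm no member was called (0.0169% of all genes higher and 0.0337% lower, 1 member at an unadjusted p under 0.05). Acot3 lay at 7.88, 8.75 and 9.51 RPKM in the 3 female 4-OHT livers and from 3.2 to 13.1 in the 4 males, and its log2 difference was 0.26 ± 0.38. Whether the sex difference itself differs between the arms was not tested.

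**Figure D5:**
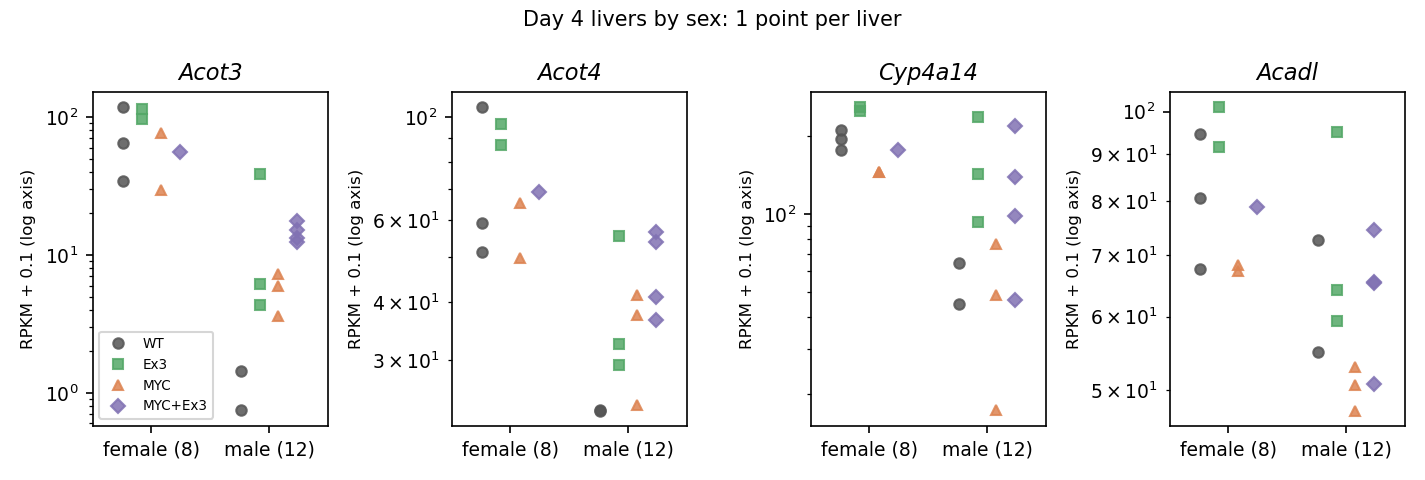
RPKM + 0.1 on a log axis of the 4 genes called between the sexes in the 20 day-4 livers, 8 female and 12 male; each point is 1 liver, with colour and shape giving the genotype. Acot3 lies below 2 RPKM in the 2 WT males and above 29 in all 8 females.

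A further 153 genes of the same pathways, from a list of enzymes, transporters, partner receptors and PPAR-alpha targets, gave the wider picture (143 tested in the day-4 livers, 142 in the tumour arm). In MYC against WT livers 9 rose and 29 fell; 16.9% of all genes rose and 5.36% fell, so rises were fewer and falls more frequent than over all genes. The largest falls were Cyp4f15, a fatty acid omega-hydroxylase (-1.42 ± 0.41, adjusted p = 0.0171), Acacb, the acetyl-CoA carboxylase whose product blocks CPT1 (-1.14 ± 0.34, adjusted p = 0.0215), and Fgf1 (-1.03 ± 0.30, adjusted p = 0.0189). The largest rises were Acot6 (0.99 ± 0.21, adjusted p = 0.00221), Rxrg, a partner receptor (0.94 ± 0.27, adjusted p = 0.0178), and Esrra, a nuclear receptor of mitochondrial genes (0.71 ± 0.21, adjusted p = 0.02). In MYC+Ex3 against WT livers 12 rose and 16 fell (17.9% and 6.18% of all genes). The falls were led by Acacb (-1.37 ± 0.34, adjusted p = 0.00603), Acot11 (-1 ± 0.20, adjusted p = 0.000866) and G0s2, an inhibitor of the lipase ATGL (-0.92 ± 0.20, adjusted p = 0.00194). The rises were led by Hilpda, another inhibitor of that lipase (1.18 ± 0.41, adjusted p = 0.0447), Acot6 (1.03 ± 0.21, adjusted p = 0.00135) and Fam195a (0.78 ± 0.16, adjusted p = 0.00152). Against Ex3 livers 11 rose and 22 fell in MYC+Ex3 (16.4% and 4.7% of all genes), with Cyp4a32 (-1.23 ± 0.40, adjusted p = 0.0346), Acacb (-0.98 ± 0.34, adjusted p = 0.0467) and Acss2 (-0.86 ± 0.21, adjusted p = 0.00584) lowest. Highest were Hilpda (1.37 ± 0.41, adjusted p = 0.0225), the lipid droplet gene Plin4 (0.96 ± 0.33, adjusted p = 0.0419) and Acot6 (0.88 ± 0.21, adjusted p = 0.00543). None was called in Ex3 against WT livers (11 at an unadjusted p under 0.05), in MYC+Ex3 against MYC livers (10) or in the test of additivity (0).

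In MYC tumours 20 of the further genes rose and 33 fell, where 36.2% of all genes rose and 13.7% fell. Of 9 omega-oxidation genes, a group singled out after its values were seen, 7 fell. Cyp4f14, a fatty acid omega-hydroxylase (-2.28 ± 0.19, adjusted p = 1.16e-06), Fgf1 (-2.28 ± 0.26, adjusted p = 1.56e-05) and Acacb (-2 ± 0.18, adjusted p = 2.39e-06) fell most. Acss1, which activates acetate in mitochondria (2.29 ± 0.52, adjusted p = 0.00249), Cpt1b, the muscle form of CPT1 (1.71 ± 0.37, adjusted p = 0.00193), and the lipoprotein lipase gene Lpl (1.34 ± 0.14, adjusted p = 9.44e-06) rose most. In MYC+Ex3 tumours 23 rose and 40 fell, including 4 of 9 omega-oxidation genes, where 42.3% of all genes rose and 18.4% fell. At the lower end were Cyp4f14 (-4.03 ± 0.19, adjusted p = 3.16e-09), Fgf1 (-2.62 ± 0.26, adjusted p = 1.82e-06), and Acacb (-2.26 ± 0.18, adjusted p = 3.25e-07), and at the upper end Cpt1b (2.66 ± 0.37, adjusted p = 3.68e-05), Acss1 (2.60 ± 0.52, adjusted p = 0.00065) and Hilpda (1.98 ± 0.28, adjusted p = 3.55e-05). Both sets of tumours were compared with the same 7 livers. Between the tumour kinds 2 rose in MYC+Ex3, Cyp4a31 (1.30 ± 0.28, adjusted p = 0.0152) and the acyl-CoA synthetase Acsl4 (0.84 ± 0.21, adjusted p = 0.0412), and 3 fell, Bdh2 (-1.96 ± 0.39, adjusted p = 0.0108), Cyp4f14 (-1.75 ± 0.22, adjusted p = 0.000386) and the peroxisomal CoA hydrolase Nudt7 (-0.96 ± 0.23, adjusted p = 0.0311). By sex, 4 of these genes were higher and 5 lower in female than in male day-4 livers, and 0 in either direction in the tumour arm (5 at an unadjusted p under 0.05). Cyp4a12a (-5.70 ± 0.21, adjusted p = 1.29e-13) and Cyp4a12b (-4.73 ± 0.20, adjusted p = 1.25e-12), omega-hydroxylases known from male mice, and Fitm1 (-1.28 ± 0.22, adjusted p = 0.00192) were lowest. Abcd2, a peroxisomal fatty acid transporter (1.94 ± 0.22, adjusted p = 9.22e-06), Ppargc1a, a coactivator of PPAR-alpha (0.81 ± 0.19, adjusted p = 0.0188), and Klb, the coreceptor of FGF21 (0.65 ± 0.14, adjusted p = 0.00982), were highest.

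The authors' deposited table gives its own fold changes and adjusted p-values for 7 of these comparisons. At an adjusted p under 0.05 the authors' deposited table calls 1 of the 37 genes higher and 7 lower in MYC against WT livers, 1 and 0 in Ex3, 2 and 3 in MYC+Ex3, and 0 between MYC+Ex3 and MYC livers. Of all genes it calls 20.5%, 0.765%, 27.8% and 0.276%, rises and falls together. For the tumours the authors' deposited table calls 0 higher and 14 lower in MYC, 2 and 22 in MYC+Ex3, and 2 and 0 between them. Of all genes it calls 44.5%, 60.7% and 4.49%, again with both directions together, so these shares are no background for the falls alone.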

How the data were processed

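Total RNA of 33 samples was sequenced from strand-specific TruSeq libraries, per the labels' protocols, on 1 of 2 Illumina instrument types that the labels do not assign to samples. The submitters' processing notes name TopHat2 2.0.8, TopHat, SAMtools, featureCounts 1.4.5-p1, DESeq2 and the mm9 build, without settings. The authors deposited RPKM, 1 column per sample; 0 columns belonged to other samples. Each log2 fold change and adjusted p-value of the authors' deposited table was copied and not recomputed. RPKM are not counts, so no count test was run. Whole reads recovered from the RPKM steps (100% of the 20485 genes above 0, tolerance 0.02 reads) served only for depth and reads per base. The depth of 3.75 to 9.82 M reads in genes limits the precision of low genes.

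Groups follow the sample titles. Values were tested as log2(RPKM + 1) in limma 3.58.1 (R 4.3.3) with an empirical Bayes trend, two-sided, with Benjamini-Hochberg adjustment over all genes with RPKM of at least 1 in at least 3 libraries; genes were called at an adjusted p under 0.05. The 20 day-4 livers were fitted together, as were the 13 libraries of the tumour arm, in 9 genotype comparisons and 2 by sex. Fold changes on this scale understate the change of low genes. Reads of abundant genes rose less than in proportion to depth. Whether the fold changes of those genes, mitochondrial members among them, are understated too was not tested. The labels do not say that replicates are separate animals, so p-values measure the spread between these samples. The test was tried on simulated data with a common gene length, a common depth and reads in proportion to level. That trial did not cover the shallow rise of reads with depth in abundant genes. The 37 genes, the further gene lists and the marker lists were chosen with earlier results of these data known. Full statistics are given for called members with the largest change (up to 10 each way) and for Ppara, Cpt1a, Acadm, Hadha, Ehhadh, Cyp4a14, Fgf21 and Pdk4; further pathway genes are named up to 3 each way. Alternatives were a pseudocount of 0.1, no filter, a filter at RPKM 5, rescaling by the median ratio, fits with only the compared groups or with sex as a covariate, the keratin split, each set of 4-OHT livers by the start of its title number (S14 or S15), and leaving out each library. Tables were made with Python 3.11.15 and pandas 2.3.3. Promoters are RefSeq's for GRCm38.p6; coordinates in that build were not converted to mm9.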

Additional observations from a re-analysis of the deposited data

Results flagged for a closer look

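A value was listed here when it stood apart from the other libraries of its group by Dixon's criterion. This held for 11 of 185 groups of values (5.95%), where chance gives about 1 in 20, and the 11 came from 5 libraries. In MYC liver replicate 4, a male and the only keratin-bearing liver of its group, Slc27a2 was at 114 RPKM (the others 153 to 160), Cpt1a at 56.7 (98.7 to 117) and Ehhadh at 52.8 (92.2 to 101). Without this liver Ehhadh (log2 change -0.53, adjusted p = 0.0481) and Slc27a2 (adjusted p = 0.047) remained called lower in MYC livers, while Hsd17b4 lost its call (adjusted p = 0.115), as in 10 of 20 fits that left out a liver. In MYC+Ex3 liver replicate 3, with the fewest reads of the day-4 livers (3.75 M) and the highest keratin sum (23.8 RPKM), Eci1 was at 109 RPKM (83.2 to 88.1), Acaa1b at 156 (105 to 117), Eci2 at 152 (94.3 to 108) and Bdh1 at 112 (81.0 to 86.2). Eci1 and Eci2 are enoyl-CoA isomerases of mitochondria and peroxisomes, and Acaa1b is a peroxisomal thiolase. In Ex3 liver replicate 2, Creb3l3 was at 114 RPKM (132 to 139) and Hsd17b4 at 97.9 (107 to 111). In 4-OHT liver replicate 7, Fgf21 was at 8.98 RPKM (0.334 to 1.99). In MYC+Ex3 liver replicate 5, the only female of its group, Acot3 was at 55.4 RPKM (12.3 to 17.5). The parts of sex, keratins and depth in these values were not tested.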

How the results depend on the processing

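No paired analysis was possible because replicate numbers were given in accession order and so link no samples across groups. No called change reversed its sign. Over the alternatives for the called genes and those always reported, 2772 fits kept their side of the threshold. Another 94 lost a call and 11 gained one. Members neither called nor always reported are outside this tally, so calls that they gained are not among the 11. The count of members called in Ex3 against WT livers was 0 with no filter, after rescaling, with only the groups compared, and within keratin-free or keratin-bearing livers, and 0 to 1 when a library was left out. In MYC against WT livers it was 3 with only the groups compared, 0 within keratin-free livers and 4 to 7 with a library left out. In MYC+Ex3 against Ex3 livers it was 2 within keratin-free livers and 2 to 11 with a library left out, with 2 without Ex3 replicate 5 or MYC+Ex3 replicate 2 and 11 without MYC+Ex3 replicate 3. In MYC tumours it was 20 after rescaling and 7 to 16 with a library left out (16 without MYC tumour replicate 1). In MYC+Ex3 tumours it was 18 after rescaling, 16 with only the groups compared, and 9 to 15 with a library left out (15 without MYC tumour replicate 1). Between the tumour kinds it was 1 with no filter or only the groups compared, and 1 to 5 with a library left out (5 without MYC tumour replicate 2). With a library left out it was 3 to 6 in MYC+Ex3 against WT livers, 0 in MYC+Ex3 against MYC livers, 3 to 5 between the sexes on day 4 and 0 in the tumour arm. Fits of fewer samples have less power by construction, and the counts went down in some of them and up in others. The cause of these shifts was not tested. Against the S14 set of 4-OHT livers alone Ppara and Acot3 lost their calls in MYC tumours (adjusted p = 0.0694 and 0.0907), and Cpt1a in MYC+Ex3 tumours (0.0834). Against the S15 set Decr2 and Acadl lost theirs in MYC tumours (0.0535 and 0.153). No keratin-bearing value exists for comparisons with MYC livers, which have 1 such liver, and none with only the groups compared for the test of additivity.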
